A study of Mus musculus with 9 samples.

Results

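Interferon-induced GTPases were examined in the central cornea of 3 inbred mouse strains: guanylate-binding proteins (GBPs) Gbp2, Gbp3, Gbp4, Gbp6, Gbp7 and Gbp9, and immunity-related GTPases (IRGs) Igtp, Irgm1, Irgm2 and Iigp1. A probe set of the Affymetrix array was taken where its single gene symbol was one of these 10. This gave 12 probe sets of 8 genes among 45037 probe sets that were not array controls. Gbp4 and Gbp9 had none with a single symbol and are not analysed here; Gbp4 shares 1 annotated probe set with another gene, which was not used. The genes were chosen on their measured strain differences in these data, so their values are given as a description and no test is claimed for them. The 3 strains were SJL/J (SJL, labelled as having a thick cornea), C57BLKS/J (KS, labelled as having a thin cornea) and C57Bl/6J (B6, with no thickness label), all adult male mice of 4 months on the same diet and light cycle, untreated as far as the labels state. Each strain had 3 arrays, and each array held the RNA of the central corneal punches, 2 mm wide, of both eyes of 1 mouse. Corneal thickness falls together with strain and cannot be told apart from any other strain difference.

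GBPs and IRGs are GTPases that cells make in response to interferons. Their promoters are known for gamma-activated sequences (GAS) and for interferon-stimulated response elements (ISREs), which IRF1 can bind. The proteins assemble on the vacuoles of bacteria and parasites inside the cell. Irgm1, Irgm2 and Igtp (also called Irgm3) are regulatory IRGs of host membranes, which keep effector IRGs such as the product of Iigp1 from assembling there. The genes lie in tandem clusters. Gbp7, Gbp3 and Gbp2 lie in that order on chromosome 3, with Gbp2b between Gbp3 and Gbp2, Gbp9, Gbp4 and Gbp6 lie on chromosome 5, and Irgm1, Igtp and Irgm2 on chromosome 11.

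Promoter windows from the RefSeq table (build GRCm38.p6, C57BL/6J) are given here for 6 of the 10 genes. These are shown because each of the 6 genes has a window with an ISRE core close to the annotated start. No promoter window of the remaining genes is given, so whether they hold the motif is not known here. Each window runs from 250 bases before to 50 bases after that start, written 5′ to 3′ on the strand of the gene. Capitals mark matches on either strand to the ISRE core, which is GAAA, 2 bases of any kind and again GAAA, and to the GAS motif TTCNNNGAA, and overlapping matches form 1 run.
Gbp2, chr3:142620413-142620712, plus strand: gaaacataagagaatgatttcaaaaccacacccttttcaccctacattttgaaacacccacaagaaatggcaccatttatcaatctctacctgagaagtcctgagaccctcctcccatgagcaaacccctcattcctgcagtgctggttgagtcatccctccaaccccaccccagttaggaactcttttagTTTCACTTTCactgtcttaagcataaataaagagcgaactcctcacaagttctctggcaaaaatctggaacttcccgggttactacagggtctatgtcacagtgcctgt
Gbp3, chr3:142559794-142560093, plus strand: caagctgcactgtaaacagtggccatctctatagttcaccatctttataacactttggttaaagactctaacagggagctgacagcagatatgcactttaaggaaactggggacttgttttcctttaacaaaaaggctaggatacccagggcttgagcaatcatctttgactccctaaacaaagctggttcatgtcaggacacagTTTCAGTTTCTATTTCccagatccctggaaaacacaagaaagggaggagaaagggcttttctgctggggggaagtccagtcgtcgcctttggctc
Gbp7, chr3:142530086-142530385, plus strand: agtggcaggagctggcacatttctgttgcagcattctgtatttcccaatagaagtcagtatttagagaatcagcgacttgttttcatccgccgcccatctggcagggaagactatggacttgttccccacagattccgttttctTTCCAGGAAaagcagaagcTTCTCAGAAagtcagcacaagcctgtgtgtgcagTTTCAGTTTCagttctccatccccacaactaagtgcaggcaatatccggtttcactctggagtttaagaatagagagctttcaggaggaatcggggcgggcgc
Igtp, chr11:58199306-58199605, plus strand: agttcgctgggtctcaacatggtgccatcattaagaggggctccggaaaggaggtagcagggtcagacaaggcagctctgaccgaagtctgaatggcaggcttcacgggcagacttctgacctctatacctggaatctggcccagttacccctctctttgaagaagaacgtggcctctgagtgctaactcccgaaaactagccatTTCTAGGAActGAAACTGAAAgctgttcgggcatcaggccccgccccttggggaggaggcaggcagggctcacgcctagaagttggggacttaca
Irgm1, chr11:48871371-48871670, minus strand: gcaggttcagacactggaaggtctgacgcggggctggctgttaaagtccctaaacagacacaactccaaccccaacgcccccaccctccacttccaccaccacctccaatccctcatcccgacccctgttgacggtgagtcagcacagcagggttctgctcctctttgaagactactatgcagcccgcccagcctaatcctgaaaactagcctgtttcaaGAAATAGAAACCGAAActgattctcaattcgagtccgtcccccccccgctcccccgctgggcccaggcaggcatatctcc
Irgm2, chr11:58214727-58215026, plus strand: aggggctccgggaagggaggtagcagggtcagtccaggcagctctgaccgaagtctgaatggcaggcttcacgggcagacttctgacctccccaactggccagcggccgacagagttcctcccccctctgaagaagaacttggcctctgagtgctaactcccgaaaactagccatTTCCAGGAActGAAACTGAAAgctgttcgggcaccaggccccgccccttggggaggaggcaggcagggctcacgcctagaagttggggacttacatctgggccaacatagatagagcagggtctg
The ISRE core was found in these 6 windows and not in a second annotated window of Gbp3, against 3.44% of all 32851 windows in the table. Since these windows are shown for holding that core, no enrichment is read from this. The GAS motif was found in Gbp7, Igtp and Irgm2, against 8.30% of all windows. Both motifs occurred in 0.454% of all windows. The window of Ifi47, an IRG gene outside the 10, held neither motif, so an ISRE core near the start was not common to all IRG genes searched. In Igtp and Irgm2 a GAS motif stood just before an ISRE core. These 2 windows also shared an identical run of 61 bases, at positions -11 to 49 in Igtp and -41 to 19 in Irgm2, which holds neither motif. Gbp3 and Irgm1 each held 2 overlapping ISRE cores. A match is a stretch of letters in the C57BL/6J sequence and not a measured binding site, and the sequences of SJL and KS were not read.

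**Figure D1:**
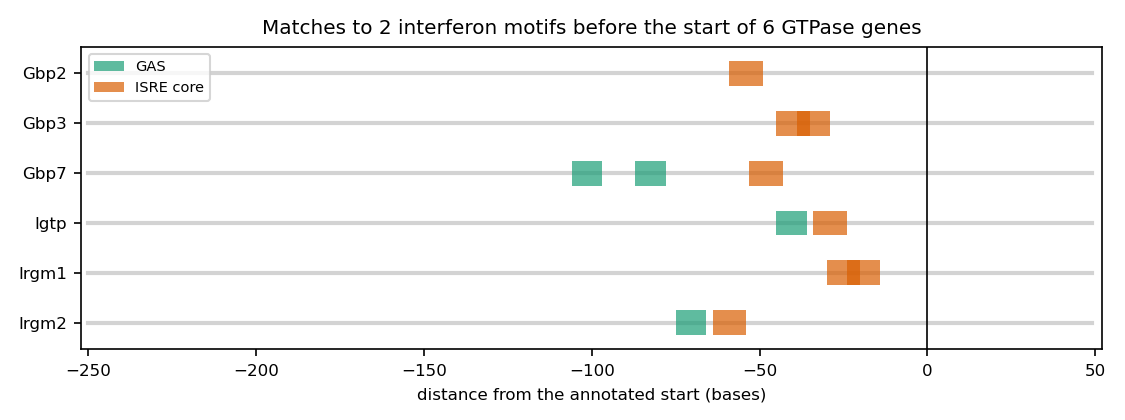
Positions of matches to the ISRE core and the GAS motif (coloured boxes) in the promoter windows of 6 GTPase genes; the x axis gives the distance in bases from the annotated start, and grey lines mark the 300 bases searched. All ISRE cores lie between positions -64 and -15 from the start.

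Values are probe set intensities on a linear scale, given for SJL, KS and B6 replicates 1, 2 and 3 in that order. About 54.6% of all intensities in the table lay below 16. A strain was called near the lower end of the scale for a probe set when its 3 arrays were all below 16. Such a level is an upper bound, since no detection calls were used. Whether the probes hybridise equally to SJL and KS alleles was not tested. Log2 differences are of log2(intensity + 10), with the standard error (SE) of the limma fit, and understate changes of dim probe sets. Means are given ± SD over 3 mice. That SE pools the spread of all 3 strains, so the SE of SJL against KS also carries the spread of B6. Levels are not compared between genes, because probe sets differ in brightness. KS replicate 3 carried photoreceptor transcripts, with a summed intensity of 9 retina markers of 5831, against 424 to 466 in SJL and 468 to 472 in B6. With and without that array, 4 of the GTPase probe sets were called higher in SJL than in KS and 9 lower in KS than in B6.

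Most of the GTPases gave their highest signal in B6, and they fell into patterns that differed in SJL. Igtp, Irgm1 and Irgm2 were several times lower in both SJL and KS than in B6. Gbp2 and Gbp7 were nearer to their B6 level in SJL than in KS, though Gbp7 was still below every B6 array in SJL, and in KS Gbp7 lay near the lower end of the scale. Gbp3 was intermediate in SJL and near the lower end in KS. Gbp6 was near the lower end in KS, and in SJL on all but 1 of its values, and Iigp1 was near the lower end on nearly every array.

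The IRG genes Irgm1, Igtp and Irgm2 shared 1 pattern. Irgm1, which is needed for control of host membranes and mitochondria, was at 367, 478 and 427 in SJL, at 346, 260 and 317 in KS and at 2503, 1991 and 2201 in B6 (probe set 1418825_at). The SJL values all lay above the KS values, and both strains lay far below B6. The mean was 424 ± 55.6 in SJL, 308 ± 43.9 in KS and 2231 ± 257 in B6 (SD, n = 3), with log2 differences of -2.37 for SJL against B6, -2.82 for KS against B6 and 0.45 for SJL against KS, each with an SE of 0.15. Igtp was at 167, 230 and 242 in SJL, at 152, 163 and 130 in KS and at 1920, 1174 and 1675 in B6 (1417141_at). Again SJL stood just above KS with no overlap, and B6 was separate from both. The mean was 213 ± 40.0 in SJL, 148 ± 16.5 in KS and 1590 ± 380 in B6, with log2 differences of -2.83 for SJL against B6, -3.31 for KS against B6 and 0.48 for SJL against KS (SE 0.20). Irgm2, whose gene lies next to Igtp, was at 156, 115 and 239 in SJL, at 101, 127 and 79.3 in KS and at 1241, 832 and 1184 in B6 (1417793_at). Here the SJL and KS values overlapped, and all B6 values were higher. The mean was 170 ± 63.5 in SJL, 102 ± 23.8 in KS and 1085 ± 222 in B6, with log2 differences of -2.64 for SJL against B6, -3.28 for KS against B6 and 0.64 for SJL against KS (SE 0.27).

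Iigp1, on chromosome 18, an effector IRG that loads onto the vacuole of the parasite Toxoplasma, gave no level above the lower end of the scale in SJL or KS. Its first probe set (1419042_at) was at 9.08, 5.81 and 5.78 in SJL, at 5.59, 5.42 and 5.47 in KS and at 29.3, 5.81 and 5.81 in B6. B6 replicate 1 was the only array above 16, and the means were 6.89 ± 1.90 in SJL, 5.49 ± 0.0875 in KS and 13.6 ± 13.5 in B6. The second probe set (1419043_a_at) lay between 4.31 and 4.47 on all 9 arrays, with means of 4.39 in SJL, 4.36 in KS and 4.39 in B6. Neither passed the filter on dim probe sets, so Iigp1 entered no fit. Iigp1 was thus near the lower end in B6 replicates 2 and 3 as well.

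Gbp2 and Gbp7 on chromosome 3 were far lower in KS than in B6, with a smaller difference between SJL and B6. Gbp2, a prenylated GBP that targets pathogen vacuoles, was at 896, 893 and 1052 in SJL, at 141, 123 and 121 in KS and at 1454, 1010 and 1299 in B6 (1418240_at). SJL and B6 overlapped, and KS lay below both. The mean was 947 ± 90.9 in SJL, 128 ± 11.0 in KS and 1254 ± 225 in B6. The log2 difference was 2.79 for SJL against KS, -3.18 for KS against B6 and -0.39 for SJL against B6 (SE 0.14). The second Gbp2 probe set (1435906_x_at, whose suffix marks probes that can bind other transcripts) was at 564, 651 and 578 in SJL, at 106, 103 and 98.2 in KS and at 1075, 703 and 852 in B6. It gave the same order, with KS lowest and no overlap between strains. Its means were 598 ± 46.7 in SJL, 102 ± 4.05 in KS and 876 ± 187 in B6, with differences of 2.43, -2.96 and -0.53 in the same comparisons (SE 0.15).

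Gbp7, a GBP that takes part in the oxidative defence of phagocytes, was at 1653, 999 and 1366 in SJL, at 11.3, 10.1 and 6.76 in KS and at 2656, 2038 and 2061 in B6 (1434380_at). All KS replicates lay near the lower end, and SJL was below B6 with no overlap. The mean was 1340 ± 328 in SJL, 9.38 ± 2.35 in KS and 2252 ± 350 in B6. The log2 difference was 6.10 for SJL against KS, -6.86 for KS against B6 and -0.76 for SJL against B6 (SE 0.20). The second probe set of Gbp7 (1425156_at) was at 107, 88.5 and 116 in SJL, at 9.19, 8.63 and 9.10 in KS and at 284, 161 and 214 in B6. Both probe sets thus placed KS near the lower end, below every SJL and B6 array. By the second the mean was 104 ± 13.9 in SJL, 8.97 ± 0.301 in KS and 220 ± 61.7 in B6, with differences of 2.58, -3.56 and -0.99 (SE 0.18). With a pseudocount between 1 and 50 and other settings the difference of SJL from KS ran from 4.52 to 7.01 by the first probe set and from 1.38 to 3.38 by the second, since KS lay near the lower end.

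Gbp3 and Gbp6 were low in both SJL and KS. Gbp3, which lies between Gbp7 and Gbp2, was at 47.8, 33.4 and 42.7 in SJL, at 15.5, 14.3 and 14.2 in KS and at 585, 164 and 305 in B6 (1418392_a_at). The strains did not overlap, and the B6 arrays spread widely. The mean was 41.3 ± 7.31 in SJL, 14.7 ± 0.726 in KS and 351 ± 214 in B6. The log2 difference was -2.65 for SJL against B6, -3.70 for KS against B6 and 1.04 for SJL against KS (SE 0.37). Gbp6, of the chromosome 5 cluster, was at 13, 13.8 and 13.7 in SJL, at 7.30, 9.48 and 8.92 in KS and at 182, 65.7 and 90.6 in B6 (1438676_at). SJL and KS both lay near that lower end, while all B6 arrays were above it. The mean was 13.5 ± 0.448 in SJL, 8.57 ± 1.13 in KS and 113 ± 61.4 in B6. The log2 difference was -2.27 for SJL against B6 and -2.61 for KS against B6 (SE 0.29). The second Gbp6 probe set (1447927_at) was at 8.62, 21.8 and 8.15 in SJL, at 8.01, 9.90 and 8.92 in KS and at 116, 28.0 and 37.9 in B6. SJL replicate 2 was its only SJL array above 16, and the SJL and KS ranges overlapped. The means were 12.9 ± 7.77 in SJL, 8.94 ± 0.948 in KS and 60.5 ± 48.0 in B6, and differences from B6 were -1.47 in SJL and -1.69 in KS (SE 0.41).

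**Figure D2:**
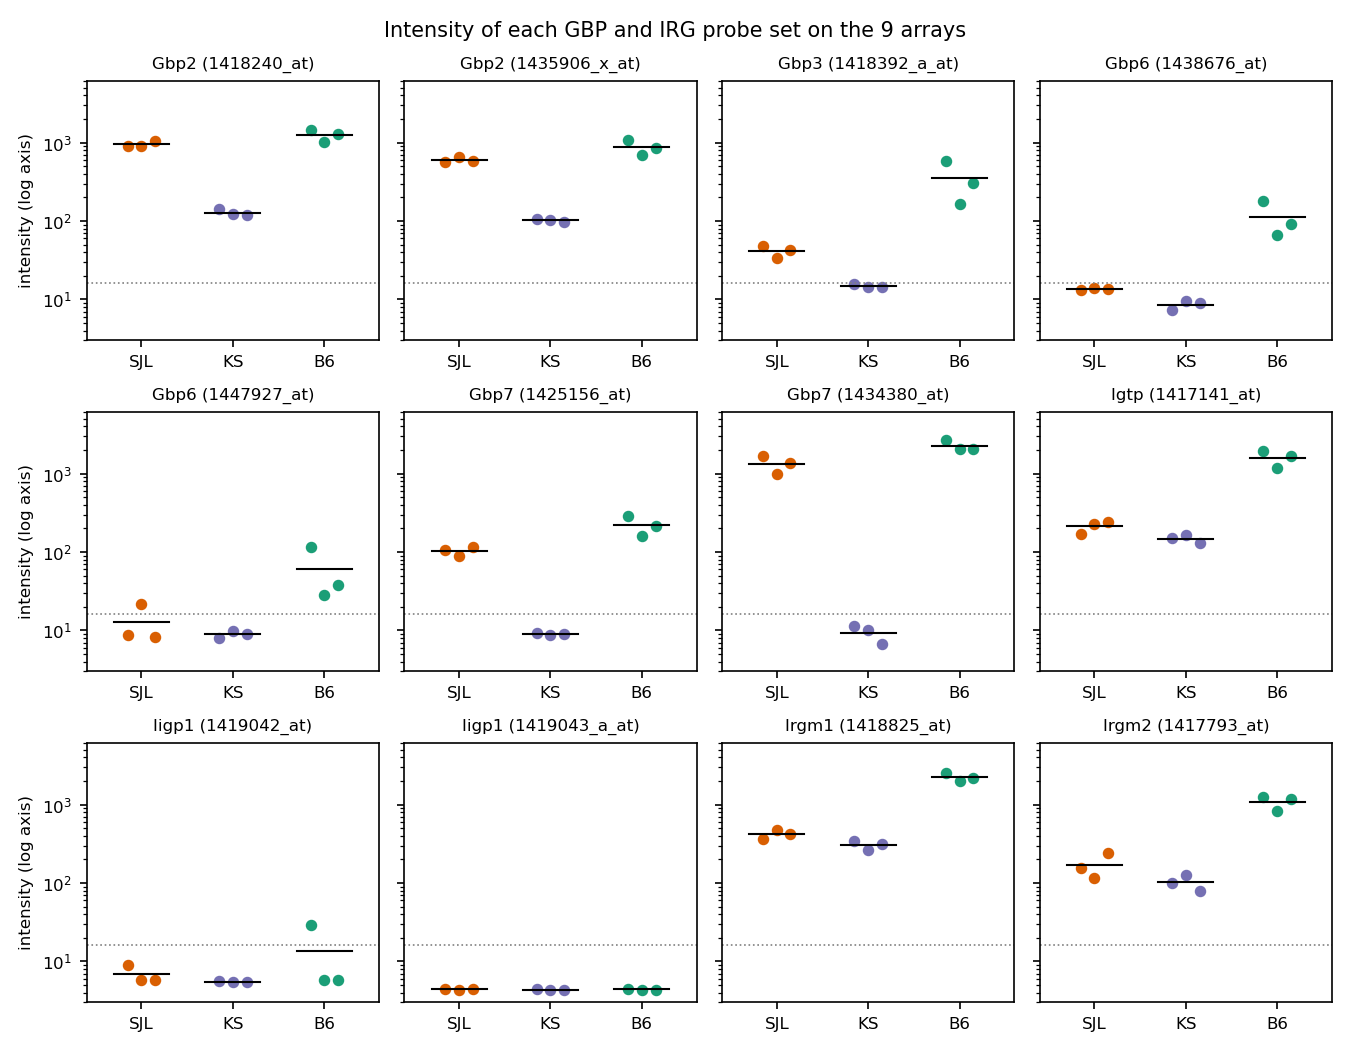
Intensity (log axis) of the 12 GBP and IRG probe sets; points are single arrays of SJL, KS and B6, black lines are strain means, and the dotted line is an intensity of 16. Gbp7 and Gbp2 are high in SJL and B6 and low in KS, while Irgm1, Igtp and Irgm2 are high in B6 alone.

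Of the 12 probe sets 10 passed the filter and were tested with all 22519 probe sets by limma, and those that passed did so in part through the strain in which they were high. Called means a Benjamini-Hochberg adjusted p under 0.05 over all probe sets tested. In SJL against KS 4 of the 10 were called higher, the 4 of Gbp2 and Gbp7, where 6.98% of all probe sets were higher, 8.52% lower and 15.5% called in either direction. In KS against B6 9 of the 10 were called lower, all but 1447927_at of Gbp6, where 2.8% of all probe sets were lower, 2.91% higher and 5.71% called in either direction. In SJL against B6 9 of the 10 were called lower, all but 1418240_at of Gbp2, where 8.09% of all were lower, 7.92% higher and 16% called in either direction. All SJL arrays lay above all KS arrays for 8 of the 10 (17.9% of all probe sets), all KS arrays below all B6 arrays for 10 (12.4%) and all SJL arrays below all B6 arrays for 9 (15%). Because the genes were chosen for such differences, nothing is read from these counts. The median log2 difference of the 10 was 0.84 in SJL against KS, -3.23 in KS against B6 and -1.87 when SJL was set against B6, and over all probe sets tested it was 0.01, 0.02 and 0.02. These comparisons share arrays in pairs and are not independent of one another. The calls of Gbp2 (1435906_x_at), Gbp7 (1434380_at) and Gbp6 (1447927_at) in the comparison of SJL with B6 were each lost when some single array was left out, and 6 to 9 probe sets were then called lower.

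**Figure D3:**
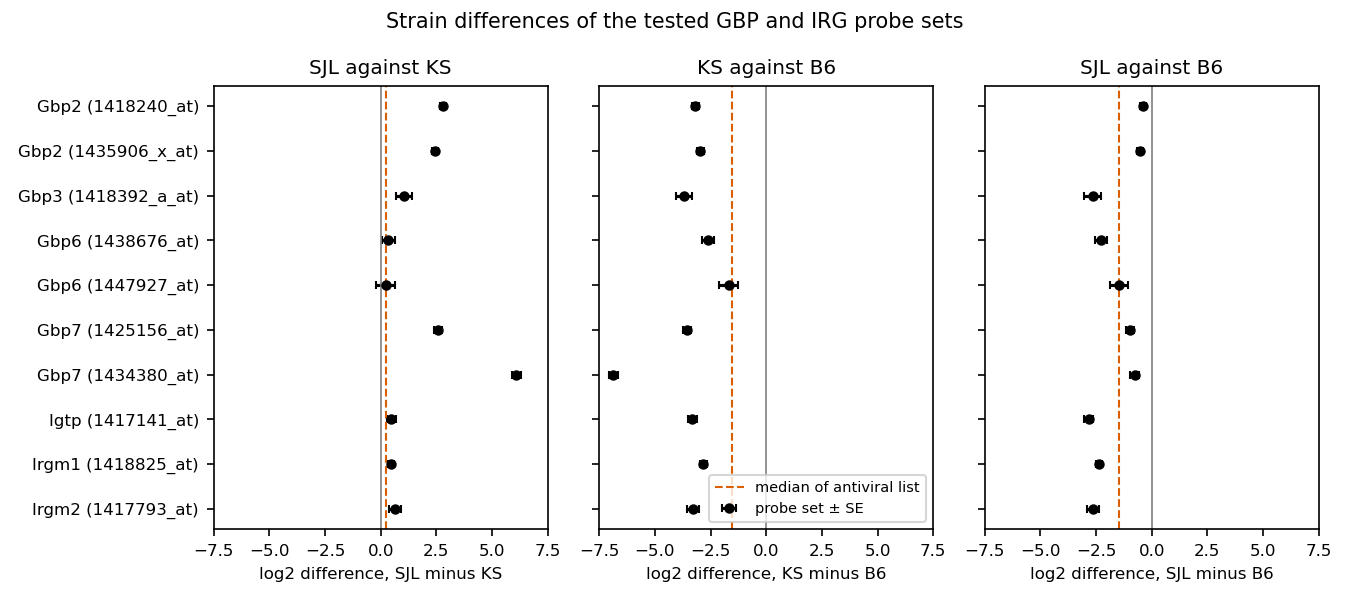
Log2 differences (x axis, first strain minus second) of the 10 tested GBP and IRG probe sets with bars of 1 SE, in 3 comparisons of strains. The dashed line is the median of the antiviral interferon-stimulated genes: 0.25 in SJL against KS, -1.55 in KS against B6 and -1.45 when SJL was set against B6.

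A broad set of antiviral interferon-stimulated genes was also lower in SJL and KS than in B6, which gives the pattern against which the GTPases can be set. The list held 33 tested genes, each standing for its brightest probe set. By limma 29 were lower and 0 higher in KS than in B6, 27 were lower and 0 higher in SJL than in B6, and 8 were higher and 1 lower in SJL than in KS. Together these were 87.9% of the list in KS against B6, 81.8% when SJL was set against B6 and 27.3% in SJL against KS. Of all probe sets 5.71%, 16% and 15.5% were called. At an unadjusted p under 0.05 the limma counts were 33 lower and 0 higher in KS against B6, and 31 lower and 0 higher when SJL was set against B6. The share of all probe sets at that threshold was not computed. The 8 higher in SJL than in KS numbered 4 without KS replicate 2 and 5 without SJL replicate 3, and the 1 lower was lost without any array of SJL or KS or B6 replicate 2. The list was named with earlier results known and is no independent support. Oas2, which makes the messenger that activates RNase L, was at 34.4 ± 25.3 in SJL, 17.4 ± 3.06 in KS and 1096 ± 213 in B6, with log2 differences from B6 of -4.76 in SJL and -5.32 in KS (limma adjusted p = 3.64e-05 and 3.4e-05). Rsad2, viperin, was at 12.4 ± 12.6 in SJL, 4.93 ± 0.0326 in KS and 791 ± 555 in B6, and Rtp4 at 377 ± 212, 166 ± 89.7 and 3965 ± 440 in the same strains (SD, n = 3 each). Among genes higher in SJL than in KS were Xaf1, a binding partner of the inhibitor XIAP (3.06, limma adjusted p = 0.000158), Zbp1, a sensor of nucleic acids in Z form (2.08, 0.00731), and Herc6, an ISG15 ligase of mice (1.21, 0.0110). Another Zbp1 probe set (0.91) was not called. Of other Herc6 probe sets 1432026_a_at (1.09) was called, and those at 0.49 and 0.43 were not. Xaf1 had a second probe set that was near the lower end in SJL (4.86 ± 0.0178) and B6 (4.79 ± 0.105) and at 488 ± 75 in KS, so that it was higher in KS, the opposite direction.

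The place of SJL between KS and B6 separated the GTPases. It was computed as the distance of the SJL mean from the KS mean on the log2 scale, in percent of the distance of the B6 mean from the KS mean. For Igtp it was 14.5%, for Irgm1 16%, for Irgm2 19.5%, for Gbp6 13.1% by both probe sets and for Gbp3 28.3%. The place of Gbp6 rests on values near the lower end in KS and on nearly all SJL arrays. By 1447927_at its difference of SJL from KS ran from -0.04 to 0.36 when single arrays were left out. Gbp6 is therefore not set against the antiviral genes. For Gbp2 it was 87.8% and 82.2% by its 2 probe sets, and for Gbp7 88.9% and 72.3%. Gbp3 and both probe sets of Gbp7 also lay near the lower end in KS. With other settings, pseudocounts among them, the Gbp3 difference of SJL from KS ran from 0.49 to 1.42. The place was computed with a pseudocount of 10 only. Among the 20 antiviral genes called at least 1 log2 unit lower in KS than in B6 it had a median of 18.0%, with quartiles of 6.03% and 28.0%, from -29.6% (Ddx60) to 67.1% (Xaf1, by its brightest probe set, with the second one going the other way as given above). Igtp, Irgm1 and Irgm2 thus lay within the quartiles of the antiviral genes, and Gbp3 close to the upper one with this pseudocount. Gbp2 and Gbp7 lay above all 20. Antiviral genes less than 1 log2 unit lower in KS than in B6 were left out of the 20. Of these, Trim25 by its brightest probe set was called lower than in B6 in KS (-0.55) but not in SJL (0.02). Another Trim25 probe set, 1426415_a_at, was called lower in SJL than in B6 (-0.90). Ifitm3, also left out, was called lower than in B6 in both SJL (-1.45) and KS (-0.84). Over all 362 probe sets called lower in KS by at least 1 log2 unit the median place was 19.9% and the upper quartile 83.6%. A place as high as that of Gbp2 or Gbp7 was thus not rare among them. The labels name no interferon treatment, so these are differences between untreated strains.

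**Figure D4:**
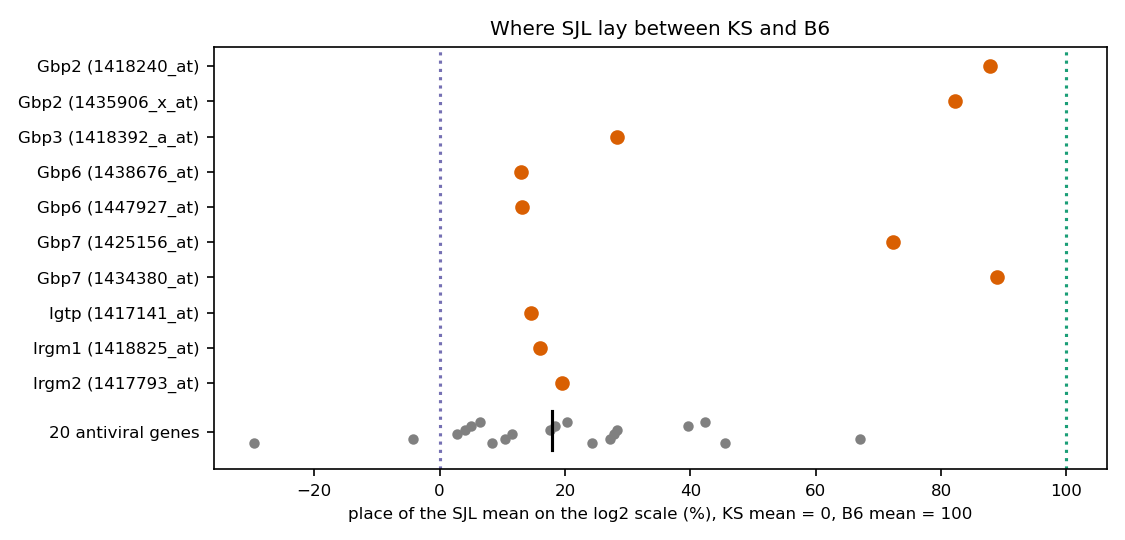
Place of the SJL mean between the KS mean (0%) and the B6 mean (100%) on the log2 scale for 10 GBP and IRG probe sets. Grey points are the 20 antiviral genes called at least 1 log2 unit lower in KS than in B6, with their median as a black line. Gbp2 and Gbp7 lie at 72.3% to 88.9%, above these 20 genes, and the other probe sets at 13.1% to 28.3%. Those of Gbp6 rest on values near the lower end of the scale in KS and on nearly all SJL arrays. Those of Gbp3 and Gbp7 rest on such values in KS.

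Of other genes of the GTPase families 4 of 8 with a probe set of their own were tested. Ifi47, the IRG also called Irgd, was at 1728, 1208 and 1585 in SJL, at 342, 319 and 363 in KS and at 3808, 2807 and 3883 in B6. The strains did not overlap, and SJL lay nearer to B6, at 63.4% of the distance from KS. All 3 differences were called by limma, at 2.10 for SJL against KS, -3.31 for KS against B6 and -1.21 for SJL against B6 (adjusted p = 7.79e-05, 8.68e-06 and 0.00163). Gbp8, of the same cluster as Gbp6, was at 12.6 ± 1.11 in SJL and 13.1 ± 1.05 in KS, near the lower end of the scale, and at 207 ± 68.3 in B6 (SD, n = 3), and it was lower in SJL (-3.22) and in KS (-3.18) than in B6 (limma adjusted p = 2.25e-05 and 4.25e-05). Mx1, an antiviral dynamin-like GTPase, was at 285, 6.33 and 39.3 on the B6 arrays and near the lower end in SJL and KS, and was not called. Irgq, a member that interferon is not known to induce, was at 1360 ± 122 in SJL, 1189 ± 58.8 in KS and 1118 ± 129 in B6 and was not called (limma adjusted p = 0.129 to 0.699). Gbp2b, Mx2, Irgc1 and Gm4951 did not pass the filter.

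Genes that carry the interferon signal differed in part. Of 21 tested ligands, receptors and signalling genes 5 were lower and 0 higher by limma in KS than in B6, and likewise 5 and 0 in SJL than in B6. These were 23.8% of the list in each comparison, beside 5.71% of all probe sets in KS against B6 and 16% when SJL was set against B6. At an unadjusted p under 0.05, 7 were lower and 2 higher in KS than in B6, and 6 lower and 1 higher in SJL than in B6. In SJL against KS limma called 0 (15.5% of all probe sets), with 1 higher and 3 lower at an unadjusted p under 0.05, and 2 called lower without B6 replicate 3. No share of all probe sets was computed for the unadjusted counts. The 5 lower genes in both comparisons with B6 were Nlrc5, Usp18, Irf9, Irf7 and Stat2. Nlrc5, a transactivator of class I histocompatibility genes, was at 4.64 ± 0.00832 in SJL, 4.66 ± 0.194 in KS and 484 ± 310 in B6, with log2 differences from B6 of -4.88 in both (limma adjusted p = 5.44e-05 in SJL and 0.000103 in KS). Usp18, which removes ISG15 and damps the type I receptor, was at 255 ± 85.5, 291 ± 40.9 and 4366 ± 774 in SJL, KS and B6, and Irf9, a subunit of the ISRE-binding complex, at 537 ± 133, 445 ± 109 and 2188 ± 65.8 (SD, n = 3 each). Irf1, which acts at ISREs of GBP promoters, was at 4297 ± 162 in SJL, 3797 ± 266 in KS and 3990 ± 699 in B6 and was not called, with differences of 0.18 for SJL against KS, -0.06 for KS against B6 and 0.12 for SJL against B6 (limma adjusted p = 0.406, 0.850 and 0.589). The interferon-gamma receptor genes Ifngr1 and Ifngr2 and the kinase genes Jak1 and Jak2 were not called in any comparison either, with differences of -0.42 to 0.36. The ligand genes Ifng and Ifnb1 and the genes Irf8, Socs1 and Ciita lay near the lower end of the scale in all strains.

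Further targets of interferon-gamma went in both directions. Of 23 tested genes of chemokines and antigen presentation 1 was higher and 5 lower in KS than in B6, 1 higher and 7 lower in SJL than in B6, and 2 higher and 3 lower in SJL than in KS by limma. Together these were 26.1% of the list in KS against B6, 34.8% when SJL was set against B6 and 21.7% in SJL against KS, beside 5.71%, 16% and 15.5% of all probe sets. The higher counts were not stable: that of SJL against KS was 0 without KS replicate 1 or SJL replicate 3 and 1 when KS replicate 2 or 3 or SJL replicate 2 was left out. That of KS against B6 was 0 without B6 replicate 1 or 2 or KS replicate 1 or 2 and 2 without B6 replicate 3, and that of SJL against B6 was 2 without B6 replicate 3 or SJL replicate 1. H2-Ab1, a class II chain, was at 24.3 ± 3.48 in SJL, 46.2 ± 0.703 in KS and 88.2 ± 15.7 in B6 and was called lower in SJL than in B6 (-1.51) and than in KS (-0.72), and lower in KS than in B6 (-0.79). H2-Eb1, a chain of another class II molecule, was lower in SJL (-1.44) and in KS (-1.38) than in B6, and Tap1, a peptide transporter, was lower in SJL (-0.84) and in KS (-0.95) than in B6. H2-DMa, a chain of the class II peptide loader, was higher in SJL (0.95) and in KS (0.97) than in B6. Cd74, the invariant chain, was lower in SJL than in B6 (-1.05) and than in KS (-0.70), as was Serping1, the C1 inhibitor (-0.97 and -1.13), and neither was called in KS against B6. The chemokine genes Cxcl9 and Cxcl10 lay near the lower end in SJL and KS, and Cxcl10 exceeded 16 on B6 replicate 3 alone. Of 25 tested autophagy, ubiquitin and inflammasome genes, which guide or follow GBPs and IRGs on vacuoles, 1 was higher and 1 lower in KS than in B6, 3 higher and 2 lower in SJL than in B6, and 2 higher and 2 lower in SJL than in KS. Together these were 8% of the list in KS against B6, 20% when SJL was set against B6 and 16% in SJL against KS, near the shares of all probe sets given above. Single arrays decided several of these counts. In SJL against KS 0 were higher without KS replicate 1 or 3, 1 was higher without KS replicate 2, B6 replicate 1 or 2 or SJL replicate 1 or 3, and 1 was lower without any array other than SJL replicate 2. In KS against B6 0 were higher without B6 replicate 3 or KS replicate 2 or 3, and 1 was higher in SJL than in B6 without SJL replicate 3. Rnf213, a ubiquitin ligase of bacterial surfaces, was at 1160 ± 280 in SJL, 1532 ± 47.2 in KS and 4378 ± 440 in B6 (SD, n = 3) and was lower in SJL (-1.93) and KS (-1.50) than in B6. Gabarapl1, a protein of the ATG8 family of autophagy, went the other way and was higher in SJL (0.70) and KS (0.93) than in B6.

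In B6 the GTPases were high or low together by array. B6 replicate 1 was the highest B6 array for 10 of 10 tested GBP and IRG probe sets, and B6 replicate 2 the lowest for 10 of 10. For the antiviral genes B6 replicate 1 was highest for 26 of 33 and B6 replicate 2 lowest for 25 of 33, against 30.9% and 32.9% of all probe sets tested. B6 replicate 1 lay a median of 0.31 log2 units above the B6 mean for the GTPases and 0.18 for the antiviral genes, and B6 replicate 2 at -0.37 and -0.17. In SJL no array was highest for more than 4 of the 10, while SJL replicate 3 was highest for 24 of 33 antiviral genes. In KS replicate 3 was lowest for 6 of 10 and highest for none, and the same array was lowest for 22 of 33 antiviral genes. The probe sets of an array share its RNA and scaling, so these counts are not independent observations.

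**Figure D5:**
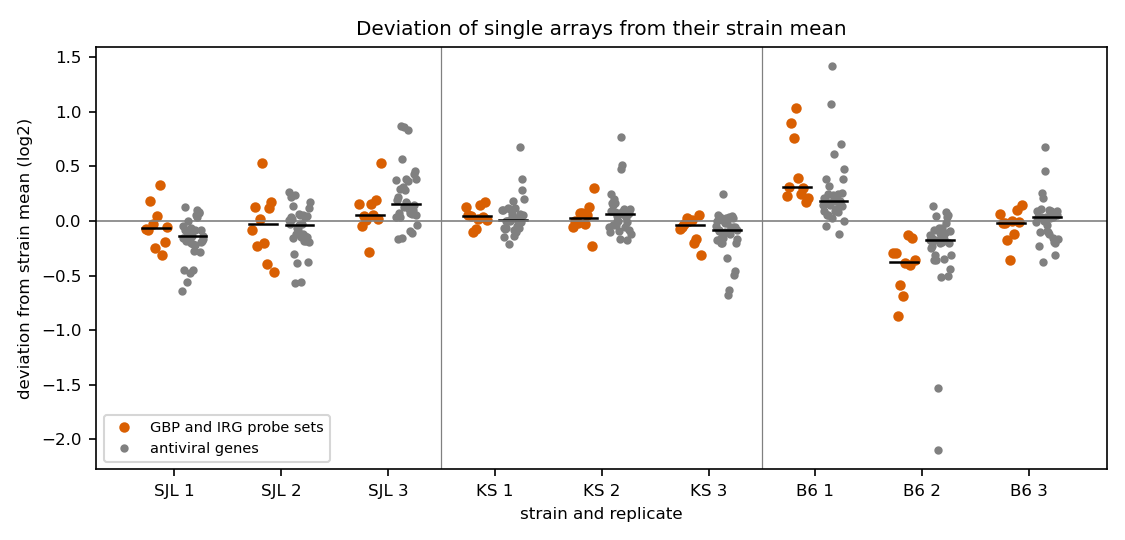
Deviation of each array from its strain mean (log2 units, y axis) for 10 GBP and IRG probe sets (orange) and 33 antiviral genes (grey), with medians as black lines, by strain and replicate (x axis). In B6 replicate 1 all GTPase points lie above 0, and in B6 replicate 2 all lie below 0.

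The genes whose profile over the 9 arrays was most like that of each GTPase were found by the root mean square difference between log2 profiles, each centred on its mean. For Igtp these were Oas1a (0.19) and Ifit1 (0.21), for Irgm2 Lgals9 (0.12) and Oas1a (0.27), and for Irgm1 Mocs1 (0.28) and Ifit1 (0.28). Gbp3 was most like Dhx58 and Lgals9 (0.44 each), and Gbp6 like Gm9706 (0.24) and Il15 (0.27). Gbp2 was most like Gldc (0.28), a glycine cleavage enzyme, and Ifi47 (0.39). Gldc was at 2309 in SJL, 244 in KS and 2124 in B6. Gbp7 had no close match, with Adh6a at 0.60 and Pgm5 at 0.82, both near the lower end in KS.

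The nearest tested genes on either side of the GTPase genes gave a mixed picture. They are not direct neighbours, with up to 16 genes between (Chsy3 and Iigp1). On chromosome 3 the nearest tested gene beyond Gbp2 was Kyat3, a kynurenine aminotransferase, at 178 ± 22.2 in SJL, 657 ± 129 in KS and 183 ± 41.7 in B6 (SD, n = 3). It was higher in KS, with differences of -1.81 for SJL against KS and 1.80 for KS against B6 (limma adjusted p = 0.000497 and 0.00104), the opposite direction to Gbp2. On the other side of that cluster Pdlim5 was at 6763 ± 923 in SJL, 6444 ± 276 in KS and 7016 ± 274 in B6 and was not called. Mrpl22 and Zfp692, which flank Igtp and Irgm2, and Trim7, before Irgm1, were not called in any comparison. Nor were Chsy3 and Smim3, the nearest tested genes on either side of Iigp1. Lrrc8c, beyond Gbp6, was near the lower end in all strains, so no difference could be seen.

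Across the 9 arrays, intensities ran from 3.39 to 37501, and upper quartiles lay between 380 and 398. Across probe sets, log2 values had correlations of 0.993 to 0.998 for arrays within a strain and of 0.983 to 0.992 between strains. Corneal epithelial and stromal markers such as Krt12 and Kera were abundant on all arrays. Of 21 leukocyte markers 12 were near the lower end on all 9 arrays, Ptprc, Adgre1, Cd3e and Nkg7 among them, and the summed leukocyte list was 3730 to 4430 in SJL, 3742 to 4700 in KS and 3379 to 3730 in B6. Of 7 vessel markers 6 were near the lower end in each strain. The summed conjunctiva and limbus markers were 9210 to 11079 in SJL, 25400 to 28539 in KS and 30197 to 38900 in B6. That sum includes Ifitm3, also on the antiviral list, at 2628 in SJL, 4013 in KS and 7308 in B6. The sum therefore overlaps with the interferon pattern in that 1 gene. Between SJL and KS the Ifitm3 means differed far less than the sums. Of the 5 tested markers 1, Ifitm3, was called lower in KS than in B6, and their median log2 difference was 0.01. In SJL against KS 4 of the 5 were called lower and 0 higher, with a median of -1.72. When SJL was set against B6, 4 were called lower and 1 higher, with a median of -1.67. Of all probe sets 5.71% were called in KS against B6, 15.5% in SJL against KS and 16% in SJL against B6. The part of these markers in the GTPase differences was not tested. In bulk tissue fewer cells of a type and less RNA per cell cannot be told apart.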

How the data were processed

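RNA of 9 central corneas (SJL, KS and B6, 3 mice each) was measured on Affymetrix arrays. Per the labels' protocols it was treated with DNase, column-purified and labelled with biotin. The authors deposited linear probe set intensity values, already summarised and brought close to one another between arrays; the sources used here do not give the method. Of 45101 probe sets 64 were controls. Gene symbols came from the platform annotation, with 34945 probe sets of 1 symbol, 932 of several and 9160 of none, and RefSeq (GRCm38.p6) served for gene order and promoters.

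Log2(intensity + 10) was fitted with limma 3.58.1 in R 4.3.3, with 1 mean per strain over 9 arrays. Probe sets below the median mean level were left out, and p-values were adjusted over the 22519 tested. The fit was tested on simulated data. Members, lists and rules for named genes were chosen with earlier results of these data known. All measured members and family genes were named. Of other lists up to 3 called genes per comparison and a few fixed regulators were named. Precision is limited by 3 arrays per strain. The labels state that each sample was 1 mouse. Alternatives were other filters, scalings and pseudocounts, 6 arrays only, a replicate block, all probe sets of a gene averaged, and leaving out each array. Intensities near the lower end and hybridisation of probes to SJL and KS alleles limit what a low value shows, and hybridisation was not tested.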

Additional observations from a re-analysis of the deposited data

How the results depend on the processing

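Over 498 recomputed log2 differences of the GBP and IRG probe sets, none changed sign among called ones, 31 lost their call and 10 gained one. All lost calls were those of Gbp2 (1435906_x_at), Gbp6 (1447927_at) and Gbp7 (1434380_at) in SJL against B6. The called lower numbered 9 in SJL against B6, 5 with the filter at the 70th percentile, which tested fewer of them, and 6 with no filter. Leaving out single arrays gave 6 (without B6 replicate 3, KS replicate 2 or SJL replicate 3) to 9. Leaving out single arrays gave 4 to 5 higher in SJL against KS and 9 to 10 lower in KS against B6. With the replicate number as a block 7 were lower in SJL against B6, 9 in KS against B6 and 4 higher in SJL against KS. Same-numbered arrays deviated with correlations of -0.27 to 0.26, with 3 of 9 pairs above 0.1, and differently numbered arrays with -0.36 to 0.42. Whether the numbers mark a pairing or a shared batch cannot be told from these values.

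Calls over all probe sets numbered 3489 in SJL against KS, 1286 in KS against B6 and 3605 when SJL was set against B6. With the filter at the 70th percentile they numbered 2101, 742 and 2156, and with no filter 838 in KS against B6. Without single arrays KS against B6 gave 745 (without KS replicate 2) to 1452 (without SJL replicate 2), and 823 without KS replicate 3. With that stricter filter 1 family gene and 3 signalling genes were lower in either comparison with B6. In SJL against KS signalling genes numbered 1 higher and 1 lower with probe sets averaged, and 1 lower with the stricter filter, a pseudocount of 50 or the replicate block. Without single arrays 0 to 2 were lower. Antiviral genes higher in SJL than in KS numbered 5 with probe sets averaged, 4 with no filter and 4 to 10 without single arrays. Those lower numbered 3 with probe sets averaged, 0 with no filter or a pseudocount of 1, and 0 to 1 without single arrays. Except for the stricter filter and averaging, which change what is tested, the cause was not tested.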
